A study of Homo sapiens with 9 samples.

Results

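The cytosolic ribosomal protein genes encode the protein part of the ribosome that translates the messages of the nuclear genome. They were chosen by gene symbol: every gene named RPL or RPS with a number and at most a closing A or X, together with RPLP0, RPLP1, RPLP2 and RPSA. This rule used no measured value and took 77 of the 60708 genes counted, of which 46 encode proteins of the large subunit and 31 proteins of the small subunit. The 9 RNA-sequencing libraries were labelled as untreated MDA-MB-231, an established human breast cancer line of the triple-negative type, a label that the marker genes below did not bear out in 6 of the 9. Of these, 3 were labelled WT and 3 each CS16 and CS19, and both CS16 and CS19 carried the genotype label SNAI1-KO. SNAI1 encodes a transcription factor that drives epithelial-mesenchymal transition, and the study describes CS16 and CS19 as single clones in which the gene was targeted with CRISPR/Cas9. The 6 libraries labelled SNAI1-KO therefore stand for 2 clones, and no label says that replicates were separate cultures, so the p-values measure the spread between these libraries only.

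A ribosome holds a fixed set of proteins, and their messages are among the most abundant in growing cells. Many of these messages begin with a C followed by a run of pyrimidines, the 5′ terminal oligopyrimidine tract, through which mTOR and the RNA-binding protein LARP1 control their translation. The genes have also left many processed pseudogenes, which are intronless copies of the messages elsewhere in the genome. Of the annotated genes, 1587 were pseudogenes named for one of the 77, with a median of 14 per gene, 969 of which were counted in 1 library or more. The authors kept only read pairs with a mapping quality of at least 30, which discards pairs that match a gene and its copies equally well and can lower the counts of genes with many copies. Over the 77 genes, the Spearman correlation of median counts per length of message with the number of pseudogenes was 0.06. Whether the filter lowered counts here was not tested.

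SNAI1 itself had 16, 38 and 21 counts in the WT libraries, 26, 40 and 49 in CS16, and 57, 94 and 94 in CS19. In edgeR's test it did not pass in SNAI1-KO against WT (log2 fold change 0.89, adjusted p = 0.0838) and rose in CS19 against WT (1.32, adjusted p = 0.031). Without WT-2 it also passed in SNAI1-KO against WT (1.40, adjusted p = 0.0146). Counts over the whole gene were thus not lower in the libraries labelled SNAI1-KO, although such counts cannot show the loss of a part of the gene. Counts per library ranged from 19527195 to 28627777, at which a floor of 3 counts was 0.0982 to 0.171 CPM (counts scaled to one total per library and normalized by TMM) and covers counting error only. A list of 12 MDA-MB-231 markers summed to between 11400 and 15000 CPM in the WT libraries and to between 571 and 623 CPM in those labelled SNAI1-KO. All 12 fell in edgeR's test of SNAI1-KO against WT, and CD44 and S100A6 lay at or under the floor in the latter. CDKN2A, CDKN2B and MTAP, neighbours at 9p21, had 0 counts in WT and summed to between 164 and 182 CPM in the libraries labelled SNAI1-KO. Markers of embryonic kidney summed to 59.4 to 82.9 CPM against 140 to 160 CPM, those of blood cells to 2.27 to 3.24 against 2.85 to 3.65, and those of luminal breast cells to 446 to 733 against 192 to 224. At or under the floor were 5 of 10 kidney markers in WT (PAX2 and LHX1 among them) and 2 in SNAI1-KO (PAX8 among them), 5 of 9 blood markers in either, and 2 of 11 luminal markers in WT and 3 in SNAI1-KO (PGR in both). The libraries labelled SNAI1-KO thus went against the label of the line in its markers and at 9p21. For SNAI1, counts over the whole gene cannot decide whether the genotype label holds. The study reports deletions inside the SNAI1 locus from its reads, and SNAI1 protein below detection in both clones. By RT-qPCR it also reports lower SNAI1 mRNA in both clones at every exon, a decrease that the counts over the whole gene did not show. In every comparison with WT below, the targeting of SNAI1 cannot be told apart from whatever else separates these cells from WT, and SNAI1-KO is used as the name of the label only. The library WT-2 stood apart from its group, since its counts over genes gave a chi-square of 210 per degree of freedom against WT-1 and of 250 against WT-3, where WT-1 and WT-3 gave 15.5.

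RefSeq promoter sequences (GRCh38.p14) were at hand for 62 of the 77 genes and, among the genes named here, not for RPL5, RPL7, RPL8, RPL23, RPL23A, RPL37, RPS2, RPS15A and RPS20. Of the 62, 42 (67.7%) had a C at the annotated start followed by at least 4 bases that were each C or T on the strand of the gene, compared with 3.95% of the 35039 other genes in the table. The stretches printed here show that start for genes on which the results turn: both genes that fell (RPL22, RPL28), 3 that rose (RPL4, RPL13, RPS4X), 1 that differed between the clones (RPL21), the stalk protein RPLP0 and RPSA. Each holds 10 bases before the annotated start and 20 from it on, 5′ to 3′, with the unbroken run of C and T that holds the start in capitals.
RPL22, chr1:6199576-6199605, minus strand: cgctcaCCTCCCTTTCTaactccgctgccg
RPL28, chr19:55385922-55385951, plus strand: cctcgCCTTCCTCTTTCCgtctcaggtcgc
RPL21, chr13:27251548-27251577, plus strand: ccgCCTCTTTCCTTTCggccggaaccgcca
RPLP0, chr12:120201092-120201121, minus strand: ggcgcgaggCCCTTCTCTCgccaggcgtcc
RPSA, chr3:39406710-39406739, plus strand: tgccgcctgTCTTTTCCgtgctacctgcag
RPL13, chr16:89560647-89560676, plus strand: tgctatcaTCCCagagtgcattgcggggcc
RPL4, chr15:66504836-66504865, minus strand: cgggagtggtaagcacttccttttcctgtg
RPS4X, chrX:72277229-72277258, minus strand: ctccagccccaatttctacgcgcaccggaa
In RPL4 and RPS4X the annotated start is an A, so nothing is in capitals, and a pyrimidine run lies a few bases downstream. In RPL13 the start is a C, but the run after it is too short to be counted as the tract. The RPL13 window ends at 89560676 and the counted gene begins at 89560677, so this annotated start lies outside the counted gene. Among the 62 genes, the 42 with the tract at the annotated start had a median log2 fold change of SNAI1-KO against WT of 0.54, and the 20 without it one of 0.70. These letters describe the annotated start, and where transcription began in these cells was not analysed here.

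Together, the 77 genes took a larger share of all counts in both clones than in WT. The share was 4.15%, 2.72% and 4.91% in WT, 7.63%, 7.95% and 7.73% in CS16, and 6.31%, 6.47% and 6.58% in CS19. The 3 groups did not overlap, and CS16 lay highest. The means were 3.93% ± 1.11 (SD, n = 3) in WT, 7.77% ± 0.165 (n = 3) in CS16 and 6.45% ± 0.132 (n = 3) in CS19. The share in the 6 libraries labelled SNAI1-KO was thus 1.81 times that in WT, and 1.57 times without WT-2. In TMM-normalized CPM, which correct for the makeup of each library, the corresponding ratio of sums was smaller, at 1.59, and at 1.39 without WT-2. In cultured cells measured in bulk, more ribosomal protein message per cell and more cells of a kind that is rich in it cannot be told apart.

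**Figure D1:**
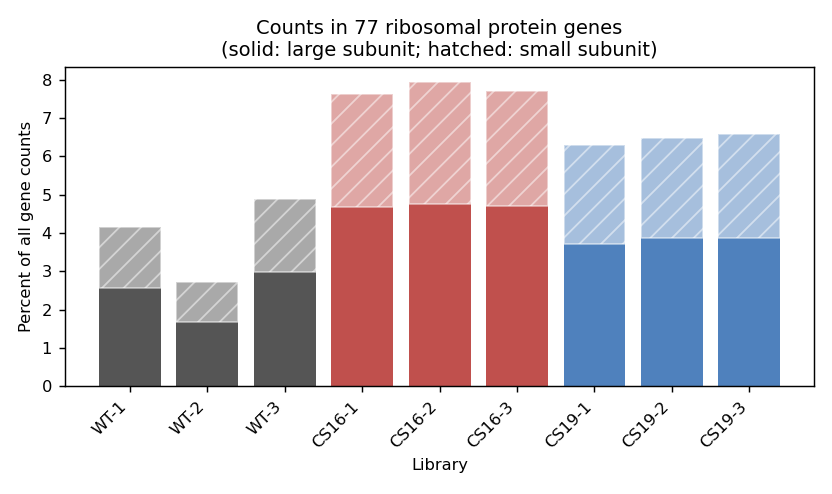
Share of all gene counts (percent) that fell on the 77 ribosomal protein genes in each library, with large subunit genes solid and small subunit genes hatched. The WT libraries lie between 2.72% and 4.91%, the CS19 libraries between 6.31% and 6.58% and the CS16 libraries between 7.63% and 7.95%.

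Both subunits contributed in nearly fixed proportion. Large subunit genes held 60.6% to 61.6% of the sum in WT, 59.9% to 61.2% in CS16 and 58.8% to 59.9% in CS19. Their share of all counts was 1.78 times as high in SNAI1-KO as in WT and that of the small subunit genes 1.87 times as high. The order of levels within the family was also much alike between groups. The Spearman correlation of mean TPM (counts per length of counted exons, scaled to one total per library) over the 77 genes was 0.94 between WT and CS16, 0.95 between WT and CS19 and 0.99 between the clones, given as a description because the genes of a library share its depth and composition.

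In SNAI1-KO against WT, 39 of the 77 genes (50.6%) rose and 2 (2.6%) fell with an adjusted p below 0.05, while 36 did not pass (edgeR, quasi-likelihood F test, Benjamini-Hochberg over 19631 genes, 6 libraries against 3). Over all genes tested, 31.1% rose and 32.6% fell. The median log2 fold change of the 77 genes was 0.63, with a range from -0.63 to 1.82, where that of all genes was 0. It was positive for 71 of the 77. Every SNAI1-KO library lay above every WT library for 29 of them (37.7%), against 29.7% of all genes. The changes were moderate in size: 12 genes passed a log2 fold change of 1, and none reached the study's cut-off of 2 by edgeR or by DESeq2, a cut-off that 26.9% of all genes passed. Leaving out WT-2 gave 36 genes higher, where 34% of all genes were, with 3 lower and a median of 0.41. Leaving out WT-1 gave 27 higher, where 28.7% of all genes were, and 1 lower. When libraries were scaled to the sum of the 77 genes themselves, which removes by construction any change they share, 10 were higher and 16 lower with a median of -0.01, and the median of all genes moved to -0.72.

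**Figure D2:**
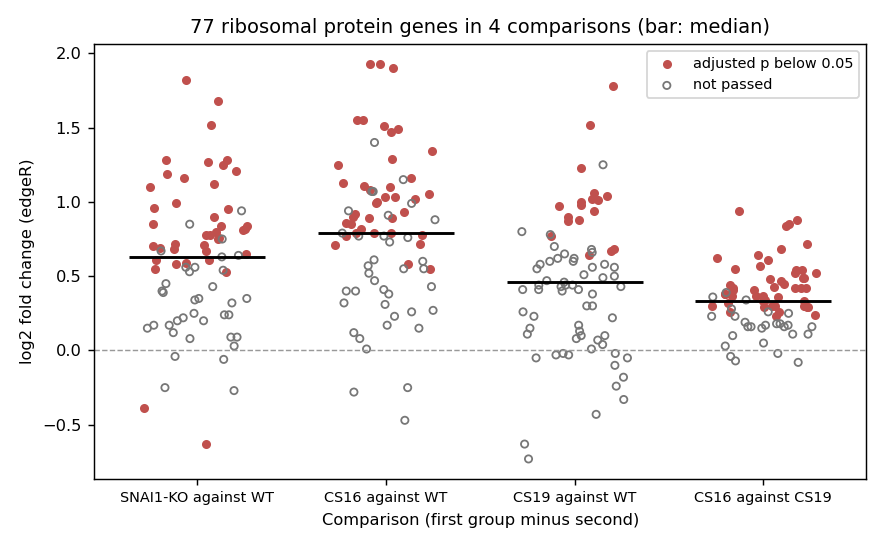
The edgeR log2 fold change of each of the 77 genes in 4 comparisons, first group minus second, with filled points for an adjusted p below 0.05, open points for the rest and a bar at the median. The medians are 0.63, 0.79, 0.46 and 0.33, and all 4 lie above 0, but lie between -0.05 and -0.01 when libraries are scaled to the sum of the 77 genes.

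The 4 genes with the smallest adjusted p among those that rose were RPS2, RPL8, RPL13 and RPS4X. RPS2 (ENSG00000140988.16, chr16:1962058-1964841, GRCh38), a small subunit protein at the entry of the mRNA channel, had 586, 936 and 715 CPM in WT, 2890, 2460 and 3020 in CS16 and 2180, 3030 and 2260 in CS19. Every library of either clone exceeded every WT library, and WT-2 was the highest of the WT libraries. The log2 fold change of SNAI1-KO against WT was 1.82 ± 0.21 (SE), the largest of the 77, with an adjusted p of 1.25e-05 (edgeR), and it was 2.01 without WT-2. RPS4X (chrX:72255679-72277248), a small subunit protein encoded on the X chromosome, had 966, 968 and 1270 CPM in WT, 3160, 2910 and 3110 in CS16 and 1880, 2320 and 2060 in CS19. The 3 groups did not overlap, with a log2 fold change of 1.27 ± 0.22 (adjusted p = 0.000349, edgeR).

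RPL8 (chr8:144789765-144792587), a large subunit protein close to the peptidyl transferase centre, had 510, 740 and 725 CPM in WT, 1610, 1490 and 1630 in CS16 and 1190, 1430 and 1230 in CS19. RPL13 (chr16:89560677-89564542), also of the large subunit, had 519, 731 and 635 CPM in WT, 1260, 1380 and 1330 in CS16 and 1050, 1190 and 1120 in CS19. In both genes all libraries of the clones lay above all WT libraries. The log2 fold changes were 1.12 ± 0.18 (adjusted p = 0.000222, edgeR) for RPL8 and 0.96 ± 0.16 (adjusted p = 0.000297) for RPL13.

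**Figure D3:**
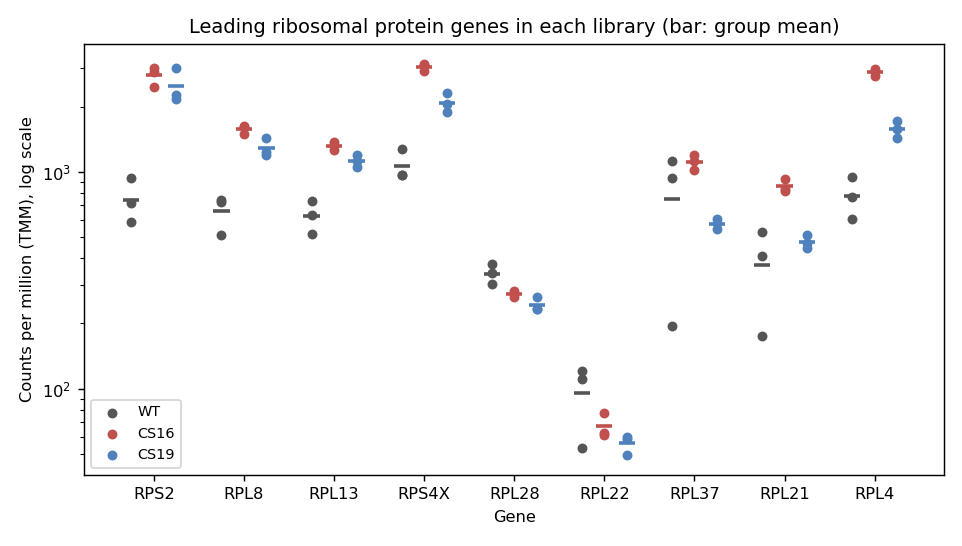
CPM (TMM, log scale) of 9 ribosomal protein genes in each library, with points for libraries and bars for group means. RPS2, RPL8, RPL13 and RPS4X are higher in every library of CS16 and CS19 than in WT, RPL28 is lower, RPL22 overlaps through WT-2 at 53.1, and RPL37, RPL21 and RPL4 are higher in CS16 than in CS19.

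Also past a log2 fold change of 1 were RPS15A (1.68), RPL4 (1.52), RPL39 (1.28), RPS6 (1.28), RPL5 (1.25), RPL7 (1.19) and RPL36A (1.16), all with an adjusted p below 0.05. RPS15A, a small subunit protein, had 123, 53.8 and 184 CPM in WT, 435, 386 and 487 in CS16 and 313, 361 and 326 in CS19. RPS6, the substrate of the S6 kinases downstream of mTOR, had 696, 585 and 912 CPM in WT, 2100, 1980 and 2190 in CS16 and 1270, 1640 and 1470 in CS19. For both genes the libraries of the clones all lay above WT, with adjusted p-values of 0.00084 and 0.000413 (edgeR). RPL39, a small protein of the peptide exit tunnel, rested more on WT-2, at 487, 134 and 767 CPM in WT against 924 to 1370 CPM in the clones, and its log2 fold change was 0.84 without that library. RPL37A (0.90, adjusted p = 0.0365) and RPL29 (0.84, adjusted p = 0.016) behaved likewise, at 0.51 and 0.53 without WT-2, and RPL37A no longer passed when WT-1, CS16-1, CS16-2, CS16-3 or CS19-3 was left out (adjusted p from 0.0514 to 0.0672). WT-2 also lay below the mean of WT-1 and WT-3 for RPS15A (log2 difference -1.47), RPL5 (-1.36), RPL7 (-1.06) and RPL36A (-0.99). Their fold changes thus rest on WT-2 in part. The difference was smaller for RPL4 (-0.49) and RPS6 (-0.44).

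The 2 genes that fell passed narrowly in the fit of all 9 libraries. RPL28 (chr19:55385932-55403250), a large subunit protein, had 303, 340 and 374 CPM in WT, 274, 283 and 265 in CS16 and 234, 265 and 232 in CS19. All libraries of the clones lay below WT, with a log2 fold change of -0.39 ± 0.13 (adjusted p = 0.0208, edgeR). RPL22 (chr1:6185020-6209389), an RNA-binding large subunit protein that cells can do without, had 53.1 CPM in WT-2 and up to 121 in the other WT libraries, 62.4, 77.5 and 61.4 in CS16 and 58.6, 49.3 and 59.8 in CS19. WT-2 fell among the clones, and the log2 fold change was -0.63 ± 0.23 (adjusted p = 0.0322). Neither call was stable. RPL28 no longer passed without WT-3 (-0.29, adjusted p = 0.107) or CS19-3 (-0.36, adjusted p = 0.0517), and RPL22 did not pass without WT-1, WT-3, CS16-1, CS16-3, CS19-1, CS19-2 or CS19-3 (adjusted p from 0.0526 to 0.196, -0.39 without WT-3).

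The paralog of RPL22 moved the other way. RPL22L1, which can take the place of RPL22 in the ribosome, had 60.9, 17.8 and 71.2 CPM in WT, 241, 266 and 238 in CS16 and a mean of 125 ± 9.92 (SD, n = 3) in CS19. The 3 groups did not overlap, and the log2 fold change of SNAI1-KO against WT was 1.90 ± 0.45 (adjusted p = 0.0029, edgeR). RPL26L1, the paralog of RPL26, also rose (1.14, adjusted p = 0.00168), and RPL7L1, a paralog of RPL7 that acts in ribosome assembly, fell by 0.89 on the log2 scale (adjusted p = 0.000774). RPL3L, a form of RPL3 known from striated muscle, passed at 3.22 but had 4, 0 and 1 counts in WT and 13 to 29 in the clones. FAU, which makes a ribosomal protein as a fusion, did not pass (0.01), nor did RPS27L (0.53), RPL36AL (0.23) and RPL39L (-0.21). RPL10L had at most 5 counts in a library and was not tested. Of the 9 paralogs and fusion genes tested, 3 thus rose and 1 fell, and the share that rose was close to the 31.1% of all genes.

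Ordered by place in the ribosome, the medians of the groups ran from 0.38 for the stalk proteins to 0.74 for the partners of 5S ribosomal RNA, which are only 2 genes. RPL5 and RPL11 join 5S ribosomal RNA and, outside the ribosome, bind MDM2, the ligase that degrades p53. RPL5 had 787, 339 and 966 CPM in WT, 1900, 2030 and 1880 in CS16 and 1270, 1380 and 1470 in CS19, and rose (1.25 ± 0.31, adjusted p = 0.00378, edgeR). RPL11 had 697, 503 and 823 CPM in WT, 1000, 857 and 1030 in CS16 and 545, 744 and 607 in CS19, so that CS19 overlapped WT, and it did not pass (0.24 ± 0.24, adjusted p = 0.392).

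The stalk proteins RPLP0, RPLP1, RPLP2 and RPL12 recruit the translation factors that hydrolyse GTP. RPLP0 had 1750, 1640 and 2210 CPM in WT, 2070, 2340 and 2170 in CS16 and 1700, 1790 and 1840 in CS19. These ranges overlapped, and RPLP0 did not pass (0.09 ± 0.17, adjusted p = 0.653, edgeR). RPLP1 (0.53, adjusted p = 0.0553) and RPLP2 (0.24, adjusted p = 0.286) did not pass either, so that RPL12 was the 1 of 4 that rose (0.67, adjusted p = 0.016). RPSA, a small subunit protein first described as a laminin receptor, rose from 785, 544 and 1060 CPM in WT to between 1240 and 1770 CPM in the clones (0.85, adjusted p = 0.00411).

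The counts for the next groups stand beside the 31.1% of all genes that rose and the 32.6% that fell. Of 11 proteins at the peptide exit, 6 rose and 1 fell (median 0.64). Of 7 along the path of the mRNA, 4 rose (median 0.65). Of 4 small subunit proteins that are phosphorylated, ubiquitylated or made as a ubiquitin fusion, RPS6 and RPS20 rose, while RPS10 (0.09) and RPS27A (0.45) did not pass. Of 19 genes mutated in Diamond-Blackfan anaemia, 8 rose and none fell in edgeR's test (median 0.61). All 4 genes on the X chromosome rose, with RPL10 at 0.70, RPL36A at 1.16, RPS4X at 1.27 and RPL39 at 1.28.

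Each clone was also set against the same 3 WT libraries, which both comparisons share. In CS16 against WT, 39 genes rose and none fell (edgeR, 0 also at an unadjusted p below 0.05 and by DESeq2), with a median of 0.79, where 27% of all genes rose and 28.6% fell. All CS16 libraries lay above all WT libraries for 53 of the 77 genes (68.8%), against 33.7% of all genes, and none reached the cut-off that 27.1% of all genes passed. A log2 fold change of 1 was passed by 20 genes, among them RPL6 (1.13), RPS7 (1.10), RPL41 (1.08), RPL38 (1.05), RPL23A (1.03) and RPL32 (1.02), while RPS27 (1.15, adjusted p = 0.142) and RPL23 (1.07, adjusted p = 0.0509) exceeded it without passing. In CS19 against WT, 18 genes rose and none fell (edgeR; 2 fell at an unadjusted p below 0.05 and 1 by DESeq2), with a median of 0.46, where 26.3% of all genes rose and 26.6% fell. The share of the 77 that rose, 23.4%, was thus below that of all genes. All CS19 libraries lay above WT for 29 genes (37.7%), against 33.2%, and none reached the cut-off that 26.4% of all genes passed.

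Both counts depended on single libraries. For CS16 against WT, 19 genes rose without WT-1, 17 without CS16-1, 22 without CS16-2 and 17 without CS16-3, while 54 rose and 3 fell without WT-2. Over all genes, the share that rose was 23.4% without WT-1, 20% to 21.4% without a CS16 library and 36.4% without WT-2. For CS19 against WT, 8 genes rose without WT-1, 9 without CS19-1, 9 without CS19-2 and 8 without CS19-3, and 31 rose without WT-3. Over all genes the share was 22.9% without WT-1, 20% to 20.7% without a CS19 library and 25% without WT-3. Without WT-2, 34 genes rose and 11 fell in CS19, with a median of 0.28, where 36.4% of all genes rose. RPL22 (-1.03, adjusted p = 5.28e-08, edgeR), RPL37 (-0.81, adjusted p = 3.09e-06) and RPL28 (-0.45, adjusted p = 0.000987) were among those 11. Leaving out 1 library ended the call of 10 of the 21 named genes that rose in CS16 (RPL10, RPL21, RPL29, RPL32, RPL36A, RPL38, RPL41, RPLP1, RPS7 and RPSA) and of 8 of 14 in CS19 (RPL5, RPL7, RPL23A, RPL36A, RPL41, RPS7, RPS15A and RPSA).

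The clones differed from each other without WT in the comparison. In CS16 against CS19, 50 of the 77 genes (64.9%) rose and none fell (edgeR, 17538 genes, 3 libraries against 3; 0 also at an unadjusted p below 0.05 and by DESeq2), with a median log2 fold change of 0.33. Over all genes, 14.7% rose and 12.7% fell, and the median was -0.02. All CS16 libraries lay above all CS19 libraries for 52 genes (67.5%), against 20.4% of all genes. The differences were small, from -0.08 to 0.94, and none reached the cut-off, which 1.13% of all genes passed. With any 1 library left out, between 36 and 50 genes were higher, and 2 were lower without CS16-2.

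RPL37 differed most. This zinc-binding large subunit protein (chr5:40825262-40835222) had 1020, 1200 and 1120 CPM in CS16, 546, 579 and 606 in CS19, and 936, 195 and 1120 in WT. CS16 was higher than CS19 by a log2 of 0.94 ± 0.08 (adjusted p = 1.54e-06, edgeR). WT-1 lay between the clones, WT-3 within the range of CS16 and WT-2 below every other library. RPL21 (chr13:27251362-27256691) had 816, 924 and 837 CPM in CS16, 447, 470 and 513 in CS19 and 410, 175 and 529 in WT, so that CS19 and WT overlapped (CS16 against CS19: 0.84 ± 0.08, adjusted p = 3.61e-06).

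RPL4 (chr15:66498015-66524532), which lines the peptide exit tunnel, had 2900, 2780 and 2980 CPM in CS16, 1430, 1710 and 1570 in CS19 and 767, 608 and 948 in WT. The 3 groups did not overlap, and the clones differed by 0.88 ± 0.08 (adjusted p = 5.33e-06, edgeR). Some genes that rose against WT did not pass between the clones. RPS2 differed between them by 0.16 ± 0.12 (adjusted p = 0.37), but by 0.33 without CS19-2 (adjusted p = 0.0206). Neither did RPL41, RPL39 or RPL36A pass, with RPL41 at 0.10 ± 0.07 (adjusted p = 0.355), RPL39 at 0.15 ± 0.11 (adjusted p = 0.364) and RPL36A at -0.07 ± 0.11 (adjusted p = 0.69).

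Within WT, most of the family shifted the same way in WT-2 and in WT-3, but by unequal amounts. In WT-3, 75 of the 77 genes lay above the mean of WT-1 and WT-2 (median log2 difference 0.65), a mean that holds WT-2. In WT-2, 67 of the 77 genes lay below the mean of WT-1 and WT-3, the median log2 difference over all 77 was -0.79, and single genes ranged from -3.12 for RPS29 to 0.83 for RPS16. RPS29, with the shortest annotated message of the 77 at 295 bases, had 8867, 1049 and 12500 counts in WT, 5958, 18603 and 7936 in CS16 and 13097, 6044 and 19692 in CS19. It thus varied within each group by more than the groups differed, and did not pass in SNAI1-KO against WT (0.40 ± 0.60, adjusted p = 0.584, edgeR). The deviation of WT-2 followed the GC content of the messages, with a Spearman correlation of 0.68 over the 77 genes and of 0.77 over 13008 genes with a mean of at least 1 CPM. The correlations were negative in WT-1 (-0.70 and -0.82) and WT-3 (-0.58 and -0.65), but each deviation is taken from the other libraries of the group, so that WT-2 sets these signs in part by construction. WT-2 also held 2.4% of its counts on the mitochondrial genome, against 0.795% in WT-1, 0.645% in WT-3 and 0.338% to 0.498% in the clones. With GC content taken into the fit, an alternative chosen after seeing the data, 45 of the 77 genes rose and 1 fell in SNAI1-KO against WT, with a median of 0.66.

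**Figure D4:**
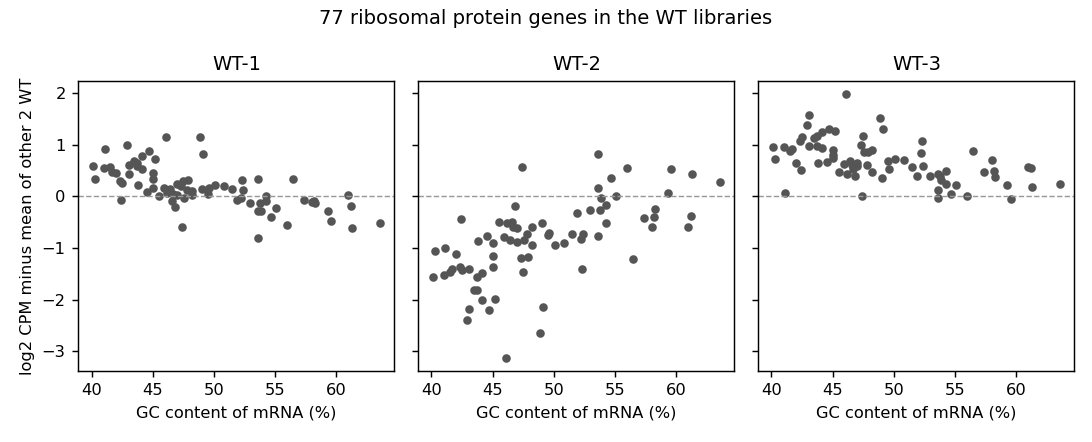
For each of the 77 genes, the log2 CPM in a WT library minus the mean of the other 2 WT libraries (y axis) against the GC content of its message in percent (x axis). WT-2 is low for messages poor in GC, down to -3.12 for RPS29, and near or above 0 for those rich in GC. WT-1 and WT-3 slope the other way, in part by construction, since WT-2 is in the mean they are set against.

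Levels between genes were compared per length only, as TPM over the counted exons or, where stated, per length of the annotated message. By the median over the 9 libraries, RPS2 (2800 TPM), RPS18 (2690) and RPS27 (2380) were highest. RPS18 had 2810, 1260 and 3180 TPM in WT and 2310 to 2850 in the clones, and RPS27, a zinc finger protein of the small subunit, had 2130, 362 and 2000 in WT and 2220 to 3440 in the clones. RPS2 ranged from 824 to 1350 TPM in WT and from 2570 to 4260 in the clones. By TPM it was thus lower than RPS18 in 2 of 3 WT libraries and higher in 6 of 6 libraries of the clones. This order depends on the length used. The counted exons span 2388 bases for RPS2 and 1834 for RPS18, their annotated messages 945 and 549. Per kb of annotated message, the median over the 9 libraries was 2720 CPM for RPS18 and 2670 for RPL39. It was 2400 for both RPS2 and RPS27, so that RPS2 was then not the highest. Across all counts, 66 of the 77 genes were among the 500 genes with the highest mean CPM and 33 among the highest 100.

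RPS10 (12.2 TPM) and RPL36A (15.1) were lowest. These genes share much of their message with a read-through or other gene annotated on the same strand, and how the authors' counting treated pairs that fit both is not given in the sources used here. The overlap covered 84% of the message of RPS10 (with RPS10-NUDT3), 43.8% of RPL36A (with RPL36A-HNRNPH2) and 96.9% of RPL17 (21.5 TPM, with RPL17-C18orf32), whereas 55 of the 77 genes overlapped no other gene. Low levels of RPS10, RPL36A and RPL17 are therefore uncertain. Because counting did not use strand, genes overlapped on the opposite strand carry the same limit. Among them were RPL38 (59% of the message, with MGC16275), RPL10 (53.7%, with DNASE1L1) and RPS6 (20.6%). RPL36A had 14, 5.21 and 9.15 CPM in WT and 18.2 to 23.6 in the clones, so that it rose at a level far below most of the family.

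Of the 1587 pseudogenes, 128 passed the filter on low counts in SNAI1-KO against WT, of which 27 rose and 37 fell, with a median of 0.05, beside the 31.1% and 32.6% of all genes. Their summed counts were 0.0215% to 0.0293% of all counts in WT and 0.0505% to 0.0552% in the clones, or at most 1.08% of the counts on the 77 genes. Without RPS2P5 the sums were 0.0214% to 0.0291% in WT and 0.028% to 0.0313% in the clones, so that this copy carried most of the difference. Copies of RPS2 were named after their values were seen. RPS2P5 (chr12:118246084-118246962, plus strand, inside an intron of TAOK3, which lies on the minus strand) had 19, 37 and 13 counts in WT, 3964, 5420 and 4758 in CS16 and 4754, 4539 and 6980 in CS19. Every library of the clones lay far above every WT library, with a log2 fold change of 7.44 ± 0.37 (adjusted p = 1.21e-08, edgeR). RPS2P46 (chr17:19445970-19446852) had 24, 13 and 12 counts in WT and 276 to 436 in the clones. RPS2P55 (chrX:40934982-40935864) had 0 counts in each WT library and 70 to 142 in the clones.

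Between the clones none of the 3 copies differed past the threshold (-0.01 for RPS2P5, -0.07 for RPS2P46 and 0.09 for RPS2P55, adjusted p from 0.761 to 0.978, edgeR). Aligned with the RPS2 message of 945 bases, they matched it at 868 of 879, 871 of 882 and 863 of 882 bases. RPS2 itself had 11862 to 16366 counts in WT and 47936 to 75665 in the clones, so the counts on RPS2P5 were a small part of those on RPS2 in every library. Whether pairs of one were placed on the other was not tested.

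Other genes of ribosome production were counted from fixed lists in the same test of SNAI1-KO against WT, where 31.1% of all genes rose and 32.6% fell. Of 77 genes of ribosome biogenesis tested, 44 rose and 4 fell (median 0.56). HEATR1, which supports transcription of ribosomal DNA, had 73.6 to 121 CPM in WT, 697, 764 and 681 in CS16 and 389, 380 and 410 in CS19, and rose by 2.42 ± 0.31 (adjusted p = 3.44e-05, edgeR). RCL1 (2.64) and NHP2 (1.64), which act in the processing and modification of ribosomal RNA, also rose, and BYSL, of small subunit assembly, fell by 0.92 on the log2 scale. Of 77 mitochondrial ribosomal protein genes tested, 40 rose and 4 fell (median 0.55), led by MRPS21 (2.49) and MRPL3 (1.70), with MRPS10 at -1.35.

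Of 42 translation factors tested, 14 rose and 9 fell (median 0.27). RACK1, a scaffold on the small subunit, had 1030, 1010 and 1260 CPM in WT, 2850, 2690 and 2980 in CS16 and 1380, 1710 and 1520 in CS19, and rose by 0.99 ± 0.28 (adjusted p = 0.00871, edgeR). EIF1AX (1.02) and EIF4B (1.00) also rose, whereas EEF1D fell by 1.13 on the log2 scale. EIF6, which keeps free large subunits from joining small ones, had 285, 192 and 356 CPM in WT and 70.1 to 86.1 in the clones, and fell by 1.79 on that scale (adjusted p = 2.77e-06).

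Of 24 regulators of ribosomal protein messages, 9 rose and 6 fell (median 0.09). LARP1 was among those that fell (-0.79, adjusted p = 0.0271, edgeR), as was RPTOR (-1.01), a part of an mTOR complex. Both rested largely on WT-2, without which LARP1 was at -0.30 (adjusted p = 0.227) and RPTOR at -0.35 (adjusted p = 0.00828), and LARP1 also did not pass without CS19-1, CS19-2 or CS19-3. By contrast, LARP1B (1.24) and SSB (1.28) rose, and MYC (0.17) and MTOR (0.02) did not pass. Of 22 chaperones and degraders of ribosomal proteins, 6 rose, with PDCD2L at 1.63 and HEATR3 at 1.48, and 2 fell, with HUWE1 at -0.93, or at -0.48 without WT-2 (median 0.32). Of 17 host genes of small nucleolar RNAs, 4 rose, with SNHG15 at 1.01, and 6 fell, with ZFAS1 at -1.03 (median 0.06).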

How the data were processed

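RNA was depleted of ribosomal RNA and made into stranded libraries sequenced from both ends. The authors used Trimmomatic 0.36 for trimming and STAR 2.7.2b in 2 passes for alignment to GRCh38, and counted read pairs per gene of gencode release 38 with featureCounts (Subread 2.0.0), without using strand. The deposited values were raw counts, with 1 file per library, and samples were grouped by title and genotype label. Symbols were found for 60463 of 60708 genes.

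Genes passing filterByExpr were normalized by TMM and tested in R 4.3.3 with edgeR 4.0.16 (quasi-likelihood), each comparison in a fit of its own, with p-values adjusted over all genes tested. DESeq2 1.42.0 was an alternative, and the closing section gives the others. GC content in the fit, and leaving out libraries for genes of the other lists, were alternatives chosen after seeing the data. Exons, message lengths and their GC content were taken from gencode 44, also on GRCh38. Levels per length divided counts by counted exon length or, where stated, by the length of the annotated message. Python 3.11.15 was used for sums and figures. The steps were tested on simulated data. Counts came without molecular identifiers.

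The members, the lists and the rule for naming genes were chosen with earlier results of these data known. Named were, by smallest adjusted p, up to 4 genes that rose and 4 that fell in SNAI1-KO against WT and 3 each way between CS16 and CS19, genes past a log2 fold change of 1 in any comparison, the 3 highest and lowest by TPM, RPLP0, RPLP1, RPLP2, RPSA, RPL5, RPL11, RPS6, RPS27A, the X-linked genes, all paralogs, and of other lists up to 3 of the largest changes each way. RPL12, RPL17, RPS16, RPS20, RPS29, RPS2P5, RPS2P46, RPS2P55, LARP1, MYC and MTOR were named outside the rule, after their values were seen. Some genes that the rule names are not reported here, though counts over the 77 genes and over lists include them. Replicate numbers did not pair the libraries, since correlations of same-numbered libraries ran from -0.39 to 0.33.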

Additional observations from a re-analysis of the deposited data

Results flagged for a closer look

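In CS16 against CS19, where the difference between the clones was itself tested (edgeR, 3 libraries against 3), 50 of the 77 ribosomal protein genes were higher in CS16. Among the genes named here, CS16 exceeded CS19 in log2 fold change by 0.94 for RPL37, 0.88 for RPL4, 0.84 for RPL21 and 0.64 for RPL23. RPL11 (0.61), RPL6 (0.57), RPS4X (0.55), RPL7 (0.54), RPS6 (0.52), RPL5 (0.49) and RPLP1 (0.48) followed. The difference was 0.44 for RPL32, 0.43 for RPL38, 0.38 for RPS15A, 0.37 for RPS27, 0.36 for RPL23A, 0.34 for RPL29, 0.33 for RPL10, 0.30 for RPLP0, 0.29 for RPL8 and 0.23 for RPL13. The calls of RPL8, RPL10 and RPL13 were lost when single libraries were left out. RPL8 did not pass without CS16-1, CS16-3, CS19-1 or CS19-3 (adjusted p from 0.07 to 0.109), RPL10 did not pass without CS19-1 (adjusted p = 0.0532), and RPL13 did not pass without CS16-1, CS16-2, CS16-3, CS19-1 or CS19-3 (adjusted p from 0.0503 to 0.127).

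RPL41, which encodes a very short large subunit protein, had 490, 565 and 489 CPM in CS16 and 461, 493 and 484 in CS19. CS16-2 lay apart from the other 5 libraries labelled SNAI1-KO, with a gap of 0.697 of the whole range, above Dixon's critical value. Chance sets a library apart in this way in about 1 in 20 such groups, and 32 named genes were checked. The values also pool 2 clones, for which the critical value makes no allowance.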

How the results depend on the processing

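Scaling each library to the sum of the 77 genes removed their shared change by construction. Higher and lower genes then numbered 10 and 16 in SNAI1-KO against WT, 8 and 10 in CS16 against WT, 4 and 8 in CS19 against WT, and 7 and 10 in CS16 against CS19, with medians of -0.01, -0.02, -0.01 and -0.05. Signs that turned under it in SNAI1-KO against WT were those of RPL37 (-0.42), RPLP0 (-0.62), RPLP1 (-0.28), RPLP2 (-0.43), RPL11 (-0.45) and RPS27A (-0.15). In CS16 against WT they were RPL37 (-0.16), RPLP0 (-0.66), RPLP1 (-0.24), RPLP2 (-0.66), RPL11 (-0.34) and RPS27A (-0.26), and in CS19 against WT RPL21 (-0.04), RPL23 (-0.01), RPLP1 (-0.33), RPLP2 (-0.23) and RPS27A (-0.05). In CS16 against CS19 they were RPS2 (-0.22), RPL8 (-0.09), RPL13 (-0.15), RPL28 (-0.22), RPL22 (-0.13), RPL23A (-0.02), RPL29 (-0.04), RPL37A (-0.11), RPL39 (-0.23), RPL41 (-0.28), RPS27 (-0.01), RPS7 (-0.15), RPLP0 (-0.08), RPSA (-0.15), RPS27A (-0.21) and RPL10 (-0.05).

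Without the 100 highest genes, which include 33 of the 77, 44 members were tested, and 18, 19, 7 and 28 of them were higher in the same order of comparisons, where 30.9%, 27%, 26.3% and 14.2% of all genes were. With the 100 highest other genes left out of the total, the share of counts was 9.01% in CS16 and 7.48% in CS19. Lower genes in SNAI1-KO against WT numbered 0 with no filter on low counts and 1 with GC content in the fit, and in CS19 against WT 1 by DESeq2, 2 in a fit shared by the 3 groups and 1 with GC content in the fit. RPLP0 in CS19 against WT was 0.03 without the filter and 0.13 with GC content in the fit, and RPLP2 in CS16 against CS19 was 0.04 with it. The cause of these changes was not tested.

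With 1 library left out, higher genes ranged from 27 to 49 and lower ones from 0 to 3 in SNAI1-KO against WT, from 17 to 54 and 0 to 3 in CS16 against WT, from 8 to 34 and 0 to 11 in CS19 against WT, and from 36 to 50 and 0 to 2 in CS16 against CS19. Some signs turned. RPL37 ranged from -0.28 to 0.60 and RPLP0 from 0 to 0.25 in SNAI1-KO against WT, both lowest without WT-2. In CS19 against WT, RPL37 ranged from -0.81 to 0.07, RPLP0 from -0.13 to 0.12 and RPL11 from -0.25 to 0.12, all highest without WT-3. In CS16 against CS19, RPL36A ranged from -0.17 to 0.01, RPLP2 from -0.23 to 0.09 and RPS27A from -0.04 to 0.31.

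The replicate numbers did not pair the libraries. With the replicate block, 39 genes were higher and 1 lower in SNAI1-KO against WT, 35, 16 and 35 were higher in the other comparisons, and the medians were 0.69, 0.90, 0.57 and 0.33. Over all alternatives to the values of the named genes, 1490 kept direction and side of the threshold, 148 no longer passed, 89 passed where they had not, and 49 turned sign. With 3 WT libraries, of which WT-2 stands apart, the precision of every comparison with WT is limited.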
